A study of Mus musculus with 176 samples.

Results

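The 7 genes examined here, Il10, Ebi3, Fgl2, Areg, Entpd1, Nt5e and Il1rl1, encode effector molecules of regulatory T cells that restrain other immune cells or promote tissue repair. They were chosen by name, as 7 of the 53546 genes in the count table. The rule that picks them uses none of their values, although earlier results of these data were known when they were chosen. A gene was called detected in a cell at 10 or more reads, and its detection was followed across cells that bound the P6 tetramer and cells that did not, with and without 10 or more reads of Foxp3, the transcription factor that specifies regulatory T cells.

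Female C57BL/6J mice, 7 weeks old at the first injection, received 100 µg of the apolipoprotein B peptide P6 into muscle at week 0, emulsified in CFA (complete Freund's adjuvant), and again at week 2 in IFA (the incomplete form). At week 4 the draining nodes (inguinal, para-aortic) were taken, antigen-experienced CD4 T cells (TCRβ+ CD4+ CD44hi CD62L-) were sorted one by one by binding of the P6 tetramer in both PE and APC, and Smart-Seq2 libraries were made from 176 cells, 32 of them P6+ and the rest P6-. The P6+ cells came from 1 mouse, and the methods describe the P6- cells as sorted from a smaller, separate portion of the sample. Each group was therefore treated as 1 sample: no test between groups was made, the intervals given are exact 95% intervals, and they cover counting error only, because the libraries carried no molecular identifiers and several reads may stem from 1 molecule. The study reported clonal expansion among the P6+ cells, for which these intervals make no allowance. Neither group is described as an unimmunized control.

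Regulatory T cells limit immune responses in several ways. IL-10 acts on antigen-presenting cells and T cells through its heterodimeric receptor, EBI3 is the shared β subunit of the cytokines IL-27 and IL-35, and FGL2 in its secreted form binds inhibitory Fc receptors. CD39 (Entpd1) and CD73 (Nt5e) act in sequence at the cell surface to convert extracellular ATP through AMP to adenosine, whereas amphiregulin (Areg), an EGF receptor ligand, and ST2 (Il1rl1), the receptor for the alarmin IL-33, are associated with tissue-resident regulatory T cells that support repair.

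All 32 P6+ cells and most P6- cells, 161 cells together, passed the filters on reads, genes and mitochondrial reads, and they held 522188 to 3401372.5 reads each. More genes were seen per P6+ cell (median 4396) than per P6- cell (median 3432). The P6+ cells all carried the name prefix 6, which only 11 of the passing P6- cells shared, so that differences between P6+ and P6- cells and differences between prefixes can be told apart only against those 11 cells. Of the 161 cells, 30 were Foxp3-high (10 or more Foxp3 reads), 11 of them P6+ and 19 P6-. Exons of Ccdc22, Flicr, Gm36995 and Ppp1r3f overlap 31.5% of those of Foxp3. Only the reads of Flicr were examined, with 0 in the Foxp3-high cells and 8 in the other passing cells. Whether the overlap altered the Foxp3 counts was not tested. At least 1 of 6 T cell markers was detected in 156 cells, including all 58 cells that held a member. Of 23 markers of CD8, natural killer, B, myeloid and mast cells or basophils, Cd79b was detected in 2 cells, Cd8b1 in 2, and Cd22, Cpa3 and Hdc in 1 cell each. These 7 cells included 5 with a member. They were left out only for the shares of cells with 1 or more and 2 or more members and for the count of members higher by Foxp3. Their part in the values of single genes and in pooled levels was not measured. Summed over its list, the B cell marker level reached 580.2 cpm in P6+ and 10.5 cpm in P6- cells, and the CD8 and natural killer cell level 0 and 1357 cpm, with a median of 0 throughout. The myeloid markers were detected in 0 cells, and Cd79a, Itgam, Adgre1, Cd14, Mcpt8, Fcer1a and Ncr1 had no reads in any passing cell.

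At least 1 of the 7 genes was detected in 58 of 161 cells (36.02%, interval 28.6 to 43.95%). Nt5e was by far the most widespread, in 36 cells, followed by Il1rl1 in 15, Ebi3 in 8, Entpd1 and Areg in 5 each, Il10 in 4 and Fgl2 in 2. In a cell that held a member the level was mostly high: of 75 detections, 4 rested on fewer than 50 reads, with 11, 14, 26 and 43 reads. A further 160 values lay between 1 and 9 reads, 3 of them between 5 and 9, and were not counted as detection. The median level over all 161 cells was 0 for every member except Nt5e, for which it was 0.760 cpm (reads of the gene per 1000000 reads of the cell).

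**Figure D1:**
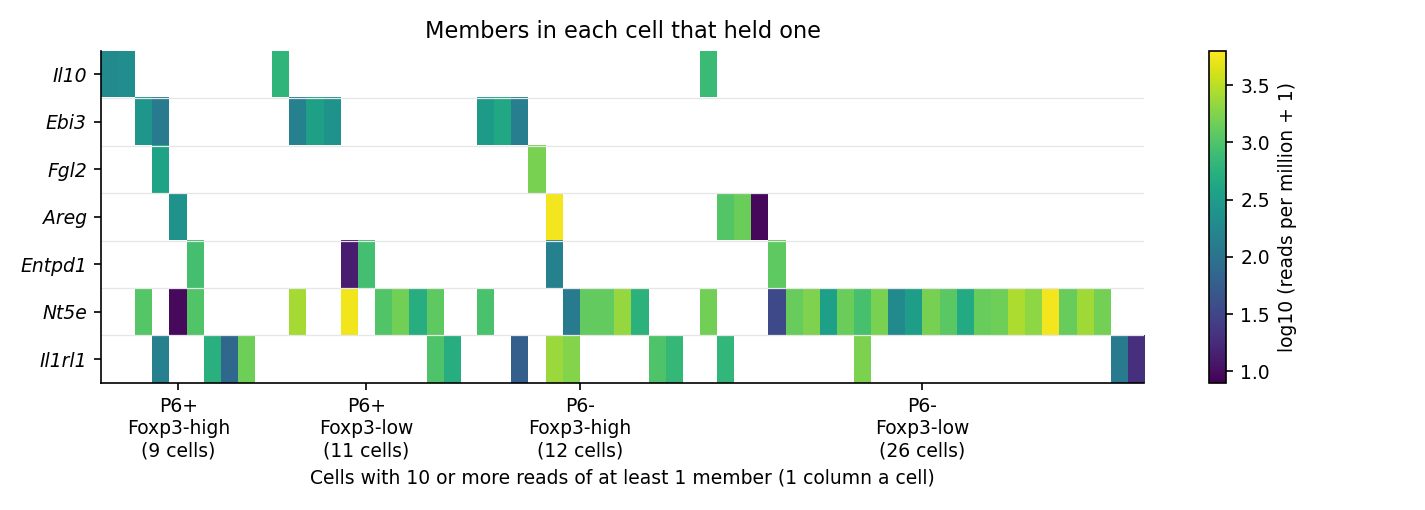
Each column is 1 of the 58 cells with 10 or more reads of a member, each row a gene, and colour gives log10 of cpm plus 1, with values under 10 reads left white. Cells are blocked by tetramer and Foxp3 group, and the row of Nt5e holds most of the coloured cells in the P6- Foxp3-low block while Ebi3 and Fgl2 are blank there.

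Among the secreted factors, Il10 (chr1:131019845-131024974 of GRCm38, plus strand, 5 exon blocks) was detected in 4 cells. It had 1107, 476 and 217 reads in P6+ cells 9, 7 and 2 and 2568 reads in 1 P6- cell. P6+ cells 7 and 2 were Foxp3-high, with 3155 and 2143 Foxp3 reads, whereas P6+ cell 9 and the P6- cell had no Foxp3 reads. The 2 highest values were thus in cells without Foxp3 reads. By share, Il10 was in 6.67% of Foxp3-high (0.818 to 22.1%) and 1.53% of Foxp3-low cells (0.185 to 5.41%), with overlapping intervals.

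Il10 was detected in 3 of 32 P6+ cells (9.38%, 1.98 to 25.02%) and 1 passing P6- cell (0.775%, 0.0196 to 4.24%), with overlapping intervals. Summed over all cells of a group, its level was 30.4 cpm (29 to 31.8) in P6+ and 12.6 cpm (12.2 to 13.1) in P6- cells, a difference of 1.20 on the scale of log2(cpm + 1). In the P6- cells, 1 cell gave 99.7% of these reads, and the difference was 4.92 without that cell and -0.059 without P6+ cell 9. By Foxp3 the pooled difference was -0.22, and 1.31 without the P6- cell, the Foxp3-low cell with most Il10 reads, or -1.64 without the highest Foxp3-high cell. Il10 reads were absent from the 19 P6- Foxp3-high cells, which leaves a share of cells with Il10 of up to 17.6%.

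Ebi3 (chr17:55952640-55957022, plus strand) was detected in 8 cells. The 5 P6+ cells had 1168, 692, 311, 204 and 165 reads, and the 3 P6- cells had 759, 588 and 196 reads. All 3 P6- cells with Ebi3 were Foxp3-high, while of the P6+ cells 2 were Foxp3-high and 3, which included the top pair, had 0 or 1 Foxp3 reads. In the 110 P6- Foxp3-low cells Ebi3 had 4 reads in all.

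By share, Ebi3 was in 15.6% of P6+ cells (5.28 to 32.8%) and 2.33% of P6- cells (0.482 to 6.65%), and in 16.7% of Foxp3-high (5.64 to 34.7%) and 2.29% of Foxp3-low cells (0.475 to 6.55%). Both pairs of intervals overlapped slightly. The pooled level was 42.9 cpm in P6+ and 7.59 cpm in P6- cells (log2 difference 2.35). The difference was 1.58 without P6+ cell 17 and 3.16 without the highest P6- cell. Against the 11 P6- cells of the shared prefix, which held 0 Ebi3 reads, it was 5.46, a size that depends on the added constant. The annotated antisense gene Gm16712 overlaps 23.4% of the Ebi3 exons and had 0 reads in all passing cells. Whether the overlap altered the Ebi3 counts was not tested.

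Fgl2 (chr5:21372642-21378374, plus strand) was detected in 2 cells, both Foxp3-high: P6- cell 73 with 1566 reads and P6+ cell 32 with 527 reads. It was detected in no Foxp3-low cell (0 to 2.78%), and these cells held 6 Fgl2 reads in all. With 1 cell in each tetramer group, the pooled levels of 8.90 cpm in P6+ and 7.72 cpm in P6- cells differed by 0.18 on the log2 scale, and by -3.10 without the P6+ cell or 3.25 without the P6- cell.

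Areg (chr5:91139599-91148432, plus strand), the repair-associated growth factor, was detected in 5 cells, and 1 of them held 70.2% of its reads. P6- cell 4, which was Foxp3-high, held 8738 reads (5562 cpm), the highest cpm of any member in any cell, and the other cells with Areg were 3 P6- cells with 1848, 1424 and 11 reads and P6+ cell 3 with 397 reads. P6+ cell 3 was also Foxp3-high, and the remaining 3 cells each had 1 Foxp3 read. The share of cells was nearly the same in P6+ (3.13%, 0.0791 to 16.2%) and P6- cells (3.10%, 0.851 to 7.75%).

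The pooled Areg level was nevertheless 6.81 cpm in P6+ and 59.1 cpm in P6- cells, a log2 difference of -2.94, and -1.15 without P6- cell 4. Against the 11 P6- cells with the prefix of the P6+ cells, which held 2 Areg reads (0.130 cpm), the difference was 2.79, and it was -0.01 without P6+ cell 3. Between Foxp3-high (192 cpm) and Foxp3-low cells (15.4 cpm) the log2 difference was 3.56, and it was -0.75 without P6- cell 4.

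Of the enzymes that generate adenosine, Entpd1 (chr19:40612366-40741602, plus strand), which encodes CD39, was far less often detected than Nt5e. It had 1478, 1355 and 26 reads in P6+ cells 23, 6 and 30 and 1849 and 235 reads in P6- cells 25 and 4. P6+ cell 23 and P6- cell 4 were Foxp3-high and the other 3 cells were not, which made 6.67% of Foxp3-high (0.818 to 22.1%) and 2.29% of Foxp3-low cells (0.475 to 6.55%), with overlapping intervals. It was in 9.38% of P6+ (1.98 to 25.02%) and 1.55% of P6- cells (0.188 to 5.49%), and its pooled level was 48.3 against 10.3 cpm (log2 difference 2.13). That difference was 1.16 without P6+ cell 23, 4.49 without P6- cell 25, 3.51 without both, and 1.51 when the P6- cells that failed the filters were added, 1 of which held 1408 reads.

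The Entpd1 comparison by Foxp3 rested on single cells. The pooled level was 35.9 cpm in Foxp3-high and 15.04 cpm in Foxp3-low cells, a log2 difference of 1.20, but the difference was -1.38 without P6+ cell 23, -0.29 without the highest cell of each group, and -0.37 within the P6- cells. It was 2.30 without the highest Foxp3-low cell and 1.25 within the P6+ cells. P6+ cell 23, the highest P6+ cell for Entpd1, was also 1 of the 2 cells with Cd79b, a B cell marker.

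Nt5e (chr9:88327197-88372092, plus strand, 9 exon blocks), which encodes CD73, was detected in 9 P6+ and 27 P6- cells. Where detected it ranged from 14 to 11557 reads with a median of 2012 in P6+ cells, and from 52 to 8335 reads with a median of 2266 in P6- cells, so the levels of positive cells overlapped widely. It was also the member most often seen at low counts, with 1 to 9 reads in 68 further cells.

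By share, Nt5e was in 28.1% of P6+ cells (13.7 to 46.7%) and 20.9% of P6- cells (14.3 to 28.97%), and in 30% of Foxp3-high (14.7 to 49.4%) and 20.6% of Foxp3-low cells (14.04 to 28.6%). All of these intervals overlapped widely. The pooled level was 470.0 cpm in P6+ and 298 cpm in P6- cells, and 292 cpm in Foxp3-high and 347 cpm in Foxp3-low cells, with log2 differences of 0.65 and -0.25. Neither reached 2-fold, and the first was -0.06 without P6+ cell 30.

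The share of P6- cells with Nt5e ran from 8.33% at prefix 2 (1 of 12 cells) to 36.4% at prefix 6 (4 of 11 cells). Those 11 cells held 897 cpm of Nt5e in the pool, more than the P6+ cells of the same prefix, and 60.1% of that came from P6- cell 78. Within that prefix the log2 difference of P6+ over P6- cells was -0.93, and it was 0.25 without P6- cell 78, so that its sign rested on that cell.

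**Figure D2:**
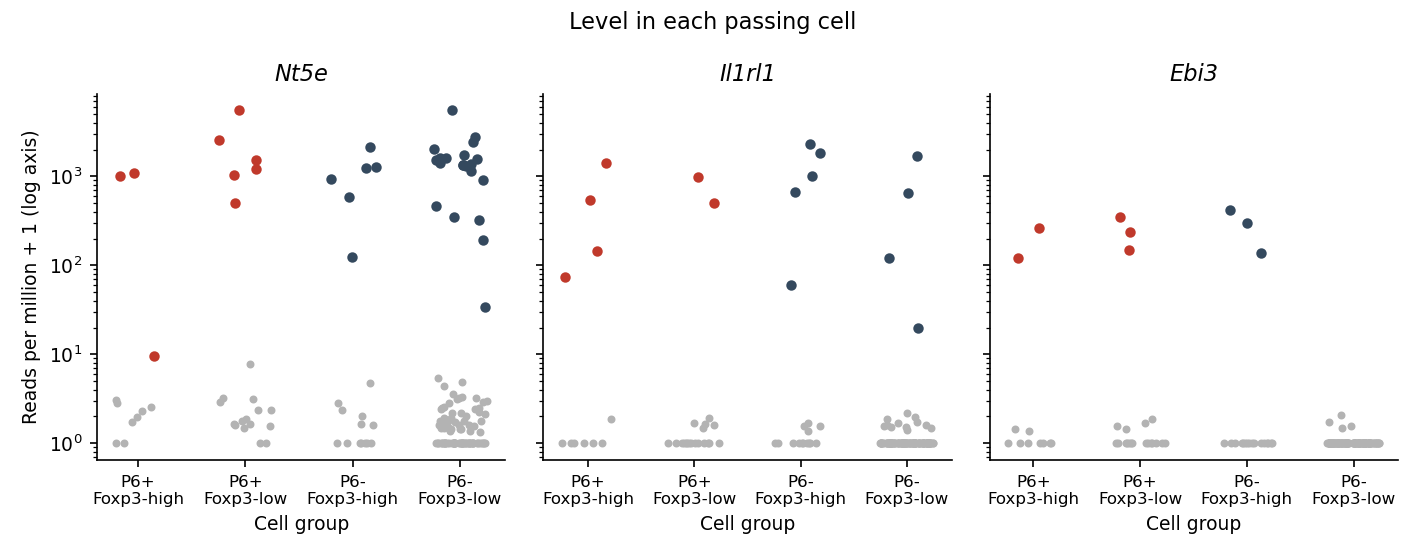
Level of Nt5e, Il1rl1 and Ebi3 in each of the 161 passing cells, as cpm plus 1 on a log axis, by tetramer and Foxp3 group. Coloured points had 10 or more reads (red P6+, dark blue P6-) and grey points fewer. Nt5e points above the threshold occur in all 4 groups, whereas no P6- Foxp3-low cell passes it for Ebi3.

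Il1rl1 (chr1:40429570-40465415, plus strand, 13 exon blocks) was the member that went most clearly with Foxp3. The counts are per gene and do not separate transcripts of the membrane-bound receptor from those of its soluble form. In the 9 Foxp3-high cells it ranged from 85 to 3815 reads with a median of 1149. In the 6 Foxp3-low cells it ranged from 43 to 2986 reads with a median of 890.5. Of the 9, P6+ cell 26 (3663 Il1rl1 reads) had 22 Foxp3 reads and the other 8 had 293 or more. The levels of positive cells overlapped, and the difference lay in how many cells held the gene.

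It was detected in 9 of 30 Foxp3-high cells (30%, 14.7 to 49.4%) and 6 Foxp3-low cells (4.58% of them, 1.70 to 9.70%), with intervals that did not overlap. Of the 2 members seen in 10 or more cells, Il1rl1 thus had intervals apart and Nt5e did not, where 4.09% of the 5791 genes seen in 10 or more cells had a higher share in Foxp3-high cells with intervals apart. After thinning every cell to 522188 reads, the shares were 30% and 3.82%, from 9 and 5 cells. The direction was the same within P6+ cells (4 of 11 and 2 of 21), within P6- cells (5 of 19 and 4 of 110), within the prefix of the P6+ cells (4 of 14 and 2 of 29) and within the other prefixes (31.3% and 3.92%), though only in the P6- cells and in the other prefixes were the intervals apart.

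The pooled Il1rl1 level was 305 cpm (299.6 to 309.5) in Foxp3-high and 32.1 cpm (31.4 to 32.9) in Foxp3-low cells, a log2 difference of 3.20. It was 2.83 without the highest Foxp3-high cell, 3.97 without the highest Foxp3-low cell, and 2.34 with Foxp3-high set at 50 reads, which moves P6+ cell 26 to the Foxp3-low cells. Across tetramer groups, Il1rl1 was in 18.8% of P6+ cells (7.21 to 36.4%) and 6.98% of P6- cells (3.24 to 12.8%), with overlapping intervals, and at 126.2 and 68.5 cpm (log2 difference 0.87, and -0.02 without P6+ cell 26). None of the 11 P6- cells with the shared prefix reached 10 reads. Of the 15 cells with Il1rl1, 1 held Cd79b and 2 held Cd8b1, the latter against a sort for CD4 cells.

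Per kilobase of annotated exon, the pooled levels over all 161 cells were 39.2 cpm for Nt5e and 38.9 cpm for Areg, then 13.5 for Ebi3, 12.7 for Il10 and 11.8 for Il1rl1, and 3.37 for Entpd1 and 2.11 for Fgl2. The near equality of Nt5e and Areg hides a different distribution over cells, since 13.03% of the Nt5e reads but 70.2% of the Areg reads came from the top cell. The top cell held 74.5% of the Fgl2, 58.6% of the Il10, 37.3% of the Entpd1, 28.5% of the Ebi3 and 17.8% of the Il1rl1 reads. Without the top cell of each gene the levels were 34.4 cpm per kilobase for Nt5e, 11.7 for Areg, 9.80 for Il1rl1, 9.75 for Ebi3, 5.32 for Il10, 2.13 for Entpd1 and 0.539 for Fgl2, so that Areg, Il10 and Fgl2 fell by more than 2-fold and Il10 came below Il1rl1. No spread over animals can be set against this order.

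Taking P6+ against P6- cells, the first question was whether cells that bind the vaccine peptide hold these effectors more often. All 7 genes had a numerically higher share of cells in P6+, though for Areg the shares were nearly equal. That count needs the background beside it: 68.5% of the 11422 genes seen in 2 or more cells had a higher share in P6+ cells, and over all genes a P6+ cell held 1.43 times as many detections as a P6- cell. Of the 2 members in 10 or more cells, 0 had intervals apart, where 8.56% of genes did.

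Counting cells rather than genes, 20 of 32 P6+ cells (62.5%, 43.7 to 78.9%) held at least 1 member, and 38 P6- cells did (29.5% of those passing, 21.8 to 38.1%). The intervals did not overlap. Leaving out Nt5e, the counts were 17 P6+ cells (53.1%, 34.7 to 70.9%) and 16 P6- cells (12.4%, 7.26 to 19.4%). Among the 11 P6- cells of the shared prefix, 4 held Nt5e (36.4%, 10.9 to 69.2%) and 0 held any other member (0 to 28.5%). The greater number of genes seen per P6+ cell moved with these shares, and its part in them was not tested beyond thinning to equal reads, after which the shares were 62.5% and 27.9%.

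In pooled level, 3 members were at least 2-fold higher in P6+ than in P6- cells (Ebi3, Entpd1 and Il10) and 1 at least 2-fold lower (Areg). Of 9809 genes at 5 cpm or more in either group, 24.1% were at least 2-fold higher and 32.1% at least 2-fold lower. The median log2 difference was 0.87 over the members and -0.12 over all genes. Without the highest P6+ cell of each gene 2 members were at least 2-fold higher (Ebi3 and Entpd1), and without the highest P6- cell 5 were. Against the 11 P6- cells of the shared prefix, 6 members were at least 2-fold higher and 0 at least 2-fold lower. Of 8553 genes, 51.8% were higher and 23.1% lower there. The log2 differences were 6.66 for Il1rl1, 5.46 for Ebi3, 5.45 for Entpd1, 4.97 for Il10, 3.31 for Fgl2, 2.79 for Areg and -0.93 for Nt5e.

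**Figure D3:**
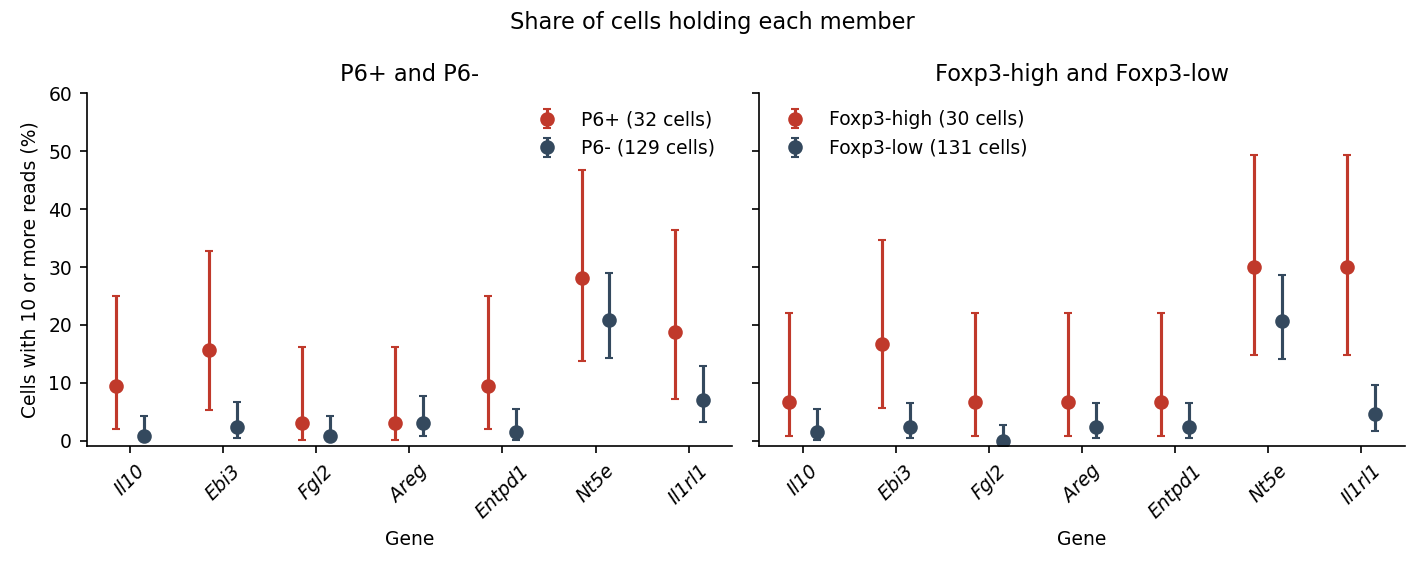
Percentage of cells with 10 or more reads of each gene, with exact 95% intervals for counting error, in P6+ and P6- cells (left) and in Foxp3-high and Foxp3-low cells (right). Only for Il1rl1 on the right, at 30% and 4.58%, do the paired intervals not overlap.

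By Foxp3, all 7 genes had a higher share in Foxp3-high cells, against a background of 64.9% of 11421 genes and 1.34 times as many detections per cell. At least 1 member was held by 21 of 30 Foxp3-high cells (70%, 50.6 to 85.3%) and 37 Foxp3-low cells (28.2% of them, 20.7 to 36.8%). Thinned to equal reads the shares were 70% and 26.7%. Even so, 37 of the 58 cells with a member were Foxp3-low, since there were more such cells.

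The Foxp3 difference was seen in both tetramer groups. Among P6+ cells, 9 of 11 Foxp3-high (81.8%, 48.2 to 97.7%) and 11 of 21 Foxp3-low cells (52.4%, 29.8 to 74.3%) held a member, with overlapping intervals. Among P6- cells, 12 of 19 Foxp3-high (63.2%, 38.4 to 83.7%) and 26 of 110 Foxp3-low cells (23.6%, 16.1 to 32.7%) did, with intervals apart. Leaving out Nt5e, a member was in 9 of 11 P6+ Foxp3-high cells (81.8%), 8 of 21 P6+ Foxp3-low cells (38.1%, 18.1 to 61.6%), 8 of 19 P6- Foxp3-high cells (42.1%, 20.3 to 66.5%) and 8 of 110 P6- Foxp3-low cells (7.27%, 3.19 to 13.8%).

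In pooled level, 5 members were at least 2-fold higher in Foxp3-high cells (Fgl2, Areg, Il1rl1, Ebi3 and Entpd1) and 0 at least 2-fold lower. The background was 22.3% of 9804 genes higher and 33.5% lower by 2-fold, and the median log2 difference was 2.03 over the members and -0.21 over all genes. Without the highest cell of each group, 3 members remained past 2-fold: Il1rl1, Fgl2 and Ebi3. Within the P6+ cells the Ebi3 difference was -0.91 in pooled level, although Ebi3 was in 18.2% of Foxp3-high (2 of 11) and 14.3% of Foxp3-low cells (3 of 21). P6+ cell 17 held 56.5% of the Ebi3 reads of the P6+ Foxp3-low cells, the difference was 0.14 without it, and between the means over cells it was -0.01.

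**Figure D4:**
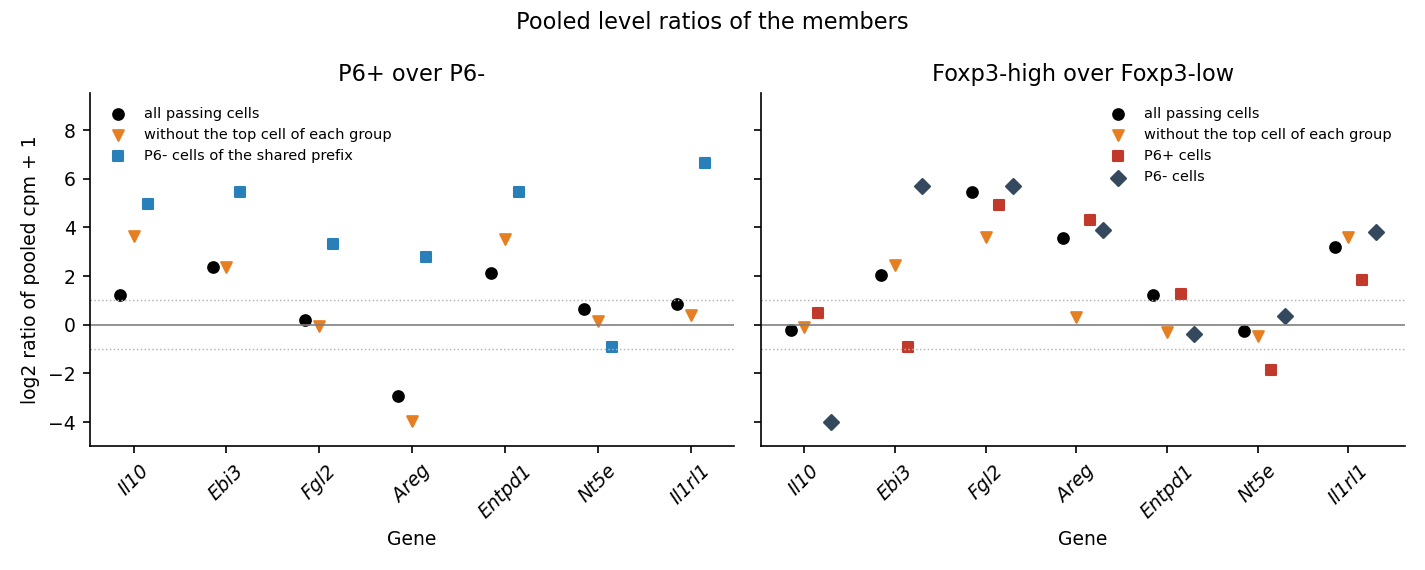
Difference of pooled level, as log2 of cpm plus 1, for each gene between P6+ and P6- cells (left) and between Foxp3-high and Foxp3-low cells (right), with dotted lines at 2-fold. Black circles use all passing cells and the other symbols the subsets in the keys. On the left Areg lies at -2.94 against all P6- cells and at 2.79 against those of the shared prefix, the latter resting on P6+ cell 3. On the right Fgl2 and Il1rl1 lie above 2-fold in every subset drawn, but within P6+ cells Il1rl1 was at -0.20 without P6+ cell 26, and Fgl2 was at 0.08 in P6+ and 0.05 in P6- cells without the 1 cell that held it.

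The members seldom occurred together. Of the 58 cells, 43 held 1 member and 15 held 2 or more, and 11 of those 15 held Nt5e. Of the 21 possible pairs, 11 were seen in any cell, and no pair in more than 3 cells. The enzymes Entpd1 and Nt5e were together in 3 cells (60% of the Entpd1 cells and 8.33% of the Nt5e cells), P6+ cells 23 and 30 and P6- cell 25. In P6+ cell 30 the pair rested on 26 Entpd1 reads beside 11557 Nt5e reads. In P6- cell 25 it rested on 52 Nt5e reads beside 1849 Entpd1 reads. Only P6+ cell 23 held many reads of each (1478 Entpd1 and 1697 Nt5e), and it also held the B cell marker Cd79b. Over all 161 cells, Entpd1 was in 3.11% and Nt5e in 22.4%.

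Il10 was found with another member in 1 P6- cell, where that member was Nt5e with 5238 reads. Ebi3 was with Nt5e in 3 cells and with Il1rl1 in 2, and with Il10, Entpd1 or Areg in 0. Areg and Il1rl1 were together in 2 of the 5 Areg cells, P6- cells 4 and 100. The cells with 3 members were P6- cell 4, with 8738 Areg, 3609 Il1rl1 and 235 Entpd1 reads, and P6+ cell 32, with 527 Fgl2, 198 Il1rl1 and 165 Ebi3 reads. Both were Foxp3-high, with 2371 and 293 Foxp3 reads.

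Cells with 2 or more members made up 7 of 32 P6+ (21.9%, 9.28 to 39.97%) and 8 P6- cells (6.20% of those passing, 2.72 to 11.9%), and 8 of 30 Foxp3-high (26.7%, 12.3 to 45.9%) and 7 Foxp3-low cells (5.34% of them, 2.18 to 10.7%). The intervals overlapped for the tetramer groups and were apart for the Foxp3 groups. At 50 or more reads the shares were 15.6% of P6+, 6.20% of P6-, 23.3% of Foxp3-high and 4.58% of Foxp3-low cells, and thinning to equal reads gave the same values. Leaving out Nt5e, 3.13% of P6+ and 2.33% of P6- cells held 2 or more, so that the difference between P6+ and P6- cells in co-detection came with pairs that include Nt5e. Between the Foxp3 groups a difference remained without Nt5e, at 10% of Foxp3-high and 0.763% of Foxp3-low cells.

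**Figure D5:**
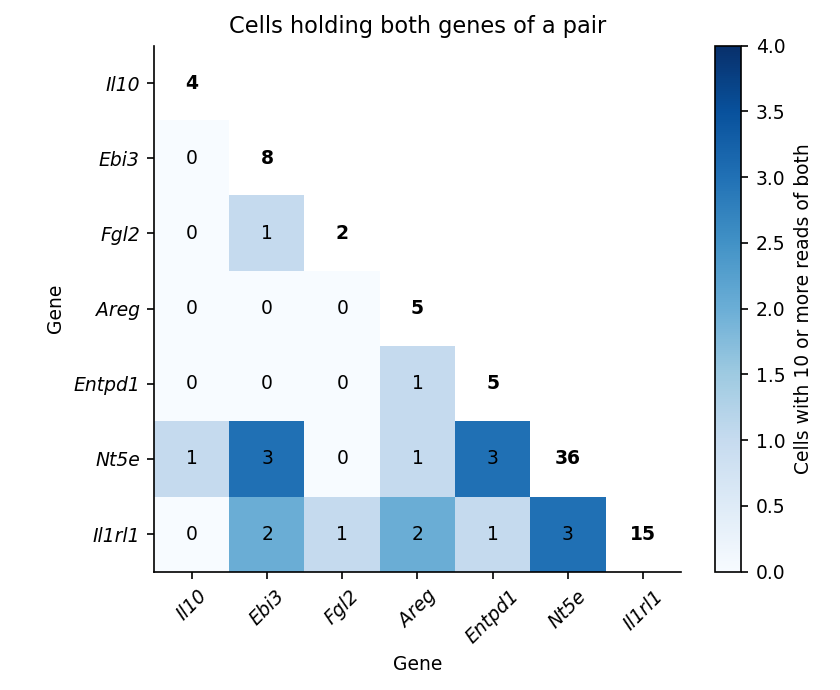
Number of the 161 passing cells with 10 or more reads of both genes of a pair (below the diagonal, shaded) and of each gene (bold, on the diagonal). The most frequent pairs, Nt5e with Ebi3, Entpd1 or Il1rl1, are in 3 cells each, and Il10 shares a cell with Nt5e alone.

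The 6 regulatory T cell markers were each more frequent where a member was detected, as were 65.1% of 11415 genes seen in 2 or more cells. Ikzf2, the transcription factor Helios, was in 31 of 58 cells with a member (53.4%, 39.9 to 66.7%) and 14 cells without (13.6% of those cells, 7.63 to 21.8%). Foxp3 was in 21 (36.2%, 23.99 to 49.9%) and 9 (8.74%, 4.07 to 15.9%). Il2ra, the high-affinity IL-2 receptor chain, was in 18 (31.03%, 19.5 to 44.5%) and 13 (12.6%, 6.89 to 20.6%), and Ctla4, an inhibitory receptor, in 39 (67.2%, 53.7 to 78.99%) and 45 (43.7%, 33.9 to 53.8%). Tnfrsf18, the gene for the costimulatory receptor GITR, was in 40 (68.97%, 55.5 to 80.5%) and 44 (42.7%, 33.02 to 52.8%), and Izumo1r, the gene for folate receptor 4, in 32 (55.2%, 41.5 to 68.3%) and 32 (31.1%, 22.3 to 40.9%). The intervals were apart for Ikzf2, Foxp3, Tnfrsf18 and Izumo1r and overlapped for Il2ra and Ctla4, where 3.45% of 5790 genes seen in 10 or more cells had a higher share in cells with a member with intervals apart. Cells with a member also had somewhat more genes (median 3849 and 3529) at similar reads.

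Individual members differed in this respect. Ctla4 was in 20% of the 5 cells with Areg and 53.2% of the cells without it, while the other markers of the list were more frequent with Areg. All 8 cells with Ebi3 held Ikzf2, Ctla4 and Tnfrsf18, and 6 of the 8 held Il2ra, where 24.2%, 49.7%, 49.7% and 16.3% of the cells without Ebi3 did. Foxp3 was in 62.5% of the cells with Ebi3 and 16.3% of those without, and Izumo1r in 50% and 39.2%. The cells with Ebi3 also had more genes, a median of 4422.5 against 3585, and the part of this in the marker shares was not tested. Of the 15 cells with Il1rl1, 93.3% held Tnfrsf18, 80% Ctla4, 73.3% Ikzf2, 60% Il2ra and 60% Foxp3, against 47.9%, 49.3%, 23.3%, 15.1% and 14.4% of the cells without it. Izumo1r went the other way, in 33.3% and 40.4%. Of the 36 cells with Nt5e, 4 held Il2ra (11.1%, 3.11 to 26.1%), where 21.6% of the cells without Nt5e did (14.7 to 29.8%), and the intervals overlapped. The other markers of the list were more frequent with Nt5e: Izumo1r in 63.9% (46.2 to 79.2%) and 32.8% (24.7 to 41.8%), with intervals apart, and with overlapping intervals Ikzf2 in 41.7% and 24%, Ctla4 in 61.1% and 49.6%, Foxp3 in 25% and 16.8%, and Tnfrsf18 in 55.6% and 51.2%.

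For the 2 members in 10 or more cells, the genes most alike in the set of cells that held them were sought among 5770 genes, by the number of shared cells over the number of cells with either gene. For Nt5e these were Eea1, an early endosome tether (0.308), Izumo1r (0.299) and Ppp2r5c, a phosphatase regulatory subunit (0.291). For Il1rl1 they were Klrg1, an inhibitory lectin-like receptor (0.375, with 12 of the 15 Il1rl1 cells), Zc3h12a, the RNase Regnase-1 (0.333), and Mt1, a metallothionein (0.324). By the same measure Foxp3 ranked 19 for Il1rl1 (0.250) and 1238 for Nt5e (0.158).

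A list of 29 receptors, partner subunits, ligands and regulators of the members gave the surroundings of these pathways. The subunits that pair with EBI3 were not detected: Il12a, the α subunit of IL-35, was in 0 cells, with at most 1 read in any of them, and Il27 had 0 reads. Of the IL-10 receptor chains, Il10ra was in 7 cells and Il10rb in 21. Il27ra was in 27 cells and Il6st, the signalling chain gp130, in 35, but Il12rb2 in 2. The Fc receptors that bind FGL2, Fcgr2b and Fcgr3, had 1 and 0 reads in all passing cells.

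Adora2a, the adenosine receptor that raises cAMP in T cells, was in 41 cells, among them 9 of the 36 with Nt5e, while Adora2b was in 0. Il1rap, the co-receptor that ST2 needs for signalling, was in 4 cells and in 0 of the 15 with Il1rl1. Il33 and Egfr were in 0 cells.

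Between P6+ and P6- cells, 4 of the 29 listed genes were at least 2-fold higher in pooled level and 6 at least 2-fold lower. These were 19.05% and 28.6% of the 21 listed genes at 5 cpm or more in either group, beside 24.1% and 32.1% of all genes tested at that level. Those in 5 or more cells that were also past 2-fold in the mean over cells were Il10rb (86.4 and 27.7 cpm, log2 difference 1.61), Maf (112.2 and 41.4 cpm, 1.42) and Batf (383 and 162 cpm, 1.24), which were higher, and Ahr (3.32 and 14.3 cpm, -1.83) and Bach2 (6.29 and 23.3 cpm, -1.74), which were lower. Without the cell with most reads of the gene in the group where it was higher, Batf (0.54) and Ahr (-0.85) no longer reached 2-fold, while Il10rb (1.28), Maf (1.02) and Bach2 (-1.21) did. Maf and Batf are transcription factors of effector differentiation, Ahr is a ligand-activated transcription factor, and Bach2 restrains effector programs.

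Between Foxp3-high and Foxp3-low cells, 4 of the 29 were at least 2-fold higher and 4 lower. Of the 21 at 5 cpm or more, 3 were higher (14.3%) and 4 lower (19.05%), beside 22.3% and 33.5% of all genes. Batf was at 464 and 156 cpm (1.57, and 0.86 without P6+ cell 26) and Bach2 at 1.72 and 23.4 cpm (-3.16, and -2.67 without P6- cell 74), in 3.33% and 21.4% of cells. Batf was in 6 of the 8 cells with Ebi3 (16.3% of those without), 3 of 4 with Il10 (17.8%), 1 of 2 with Fgl2 (18.9%), 2 of 5 with Entpd1 (18.6%) and 5 of 15 with Il1rl1 (17.8%). It was in 19.4% of the cells with Nt5e and 19.2% of those without, and in 1 of 5 with Areg (19.2% without).

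Among the P6+ cells, 16 held 10 or more reads of the receptor segment Trbv13-2 and 16 did not. All 3 P6+ cells with Il10, all 5 with Ebi3 and 5 of 6 with Il1rl1 were among the former, all 3 with Entpd1 and 6 of 9 with Nt5e among the latter. Of the cells with Trbv13-2, 9 of 16 were Foxp3-high, and of those without it 2 of 16, with medians of 4596.5 and 4222 genes per cell. Among the Foxp3-low P6+ cells, Ebi3 was in 3 of 7 with Trbv13-2 and 0 of 14 without, Il10 in 1 and 0, Il1rl1 in 1 and 1, Nt5e in 1 and 5, and Entpd1 in 0 and 2. Only 2 Foxp3-high P6+ cells lacked the segment, 1 of which held Entpd1 and Nt5e, and the part of the number of genes was not tested. Cells that share a receptor may descend from 1 clone and are not independent.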

How the data were processed

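Single-cell libraries of 176 sorted T cells were sequenced by the authors, aligned with STAR 2.6.0a to GRCm38 with Ensembl release 92, and deposited as raw read counts per gene, neither normalized nor filtered, with a table of each cell's tetramer sign, which matched all 176 labels. The kit does not mark strand, and the counts hold no molecular identifiers. Rows of the same name (81 names, no member) were averaged. Cells were kept at 500000 reads, 2000 genes and at most 10% mitochondrial reads. That left 129 of 144 P6- cells, where the study kept 97 with a further filter at a mapping rate of 75%, which was not used here. The reads per passing cell, 522188 to 3401372.5, set the precision.

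Counts were summed over a group and divided by its total (cpm), and log2 differences used 1 cpm added to each level. Shares carry exact Clopper-Pearson and sums exact Poisson intervals (scipy 1.17.1), and 0 counts allow 3. Groups hold 1 sample, so there was no test. TMM and RLE factors came from edgeR 4.0.16, and scripts ran in Python 3.11.15 and R 4.3.3 after the ratio and interval code was tested on simulated data. Positions and exon lengths are from GENCODE M21. All members are named, as are listed partners past 2-fold in pooled and cell means with 5 or more cells, direct receptors by their counts of cells, and the 3 genes most like a member found in 10 or more cells. The members and lists were chosen with earlier results of these data known. Alternatives covered detection limits, thinning, the cells entered, the Foxp3 limit, scaling and the added constant.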

Additional observations from a re-analysis of the deposited data

Results flagged for a closer look

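The difference in pooled level between Foxp3-high and Foxp3-low cells had opposite signs in P6+ and P6- cells for 4 members, and whether the groups differ was not tested. For Ebi3 it was -0.91 on the scale of log2(cpm + 1) in P6+ and 5.70 in P6- cells, so that P6+ minus P6- was -6.61. The P6- value sets 52.3 cpm against 0.0229 cpm (4 reads in 110 cells), so that its size depends on the added constant. The P6+ value was 0.14 without P6+ cell 17, with 56.5% of the Ebi3 reads of the P6+ Foxp3-low cells, and -0.01 between means over cells, and the shares of P6+ cells with Ebi3 were 18.2% and 14.3%. For Il10 it was 0.49 in P6+ and -3.98 in P6- cells, a difference of 4.47, where the P6- Foxp3-high cells held no Il10 read and 1 P6- Foxp3-low cell held 2568, so that the value depends on the added constant. For Nt5e it was -1.86 and 0.37, a difference of -2.23. The P6- value was -0.19 without P6- cell 84 and the P6+ value -1.03 without P6+ cell 30, so that the opposite signs rested on P6- cell 84, and the shares of P6+ cells with Nt5e were 27.3% and 28.6%. For Entpd1 it was 1.25 and -0.37, a difference of 1.62, where each of the 4 groups held 1 or 2 Entpd1 cells. Without the cell with most Entpd1 reads of the Foxp3-high cells the values were -5.03 and -3.49, and without that of the Foxp3-low cells 5.51 and 3.12, all of which depend on the added constant. For Il10, the P6+ value was -0.93 without P6+ cell 7 and the P6- value -0.066 without the cell with 2568 reads.

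The 15 P6- cells left out by the filters held 1410 Entpd1 reads, 1408 of them in 1 cell, 27 Nt5e reads with at most 7 in a cell, and 5 Il1rl1 reads. These totals are above the 3 counts that a value of 0 allows. Il10, Ebi3, Fgl2 and Areg had 1, 2, 0 and 3 reads there.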

How the results depend on the processing

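All 7 members had a higher share in P6+ cells, and 6 when 5 or more reads or the P6- cells of the shared prefix were used. All 7 had a higher share in Foxp3-high cells, and 6 at 1 or more reads, within P6- cells or within the other prefixes, and 5 within P6+ cells. At 1 or more reads, at least 1 member was in 96.9% of P6+, 80.6% of P6-, 86.7% of Foxp3-high and 83.2% of Foxp3-low cells, and 2 or more in 78.1%, 32.6%, 66.7% and 35.9%. With Foxp3-high set at 1 read, at least 1 member was in 50% of Foxp3-high cells. With the P6- cells of the shared prefix alone, at least 1 member was in 44.8% of Foxp3-low cells, 2 or more were in 0% of P6- cells, and 6 members were at least 2-fold higher in P6+, 3 of them against 0 reads, where 51.8% of all genes were, with a median log2 difference of 1.20. Leaving out Nt5e, a choice made after seeing the data, as was leaving out the 7 cells with markers of other lineages, gave 12.4% of P6- and 12.2% of Foxp3-low cells with a member, and 3.13%, 2.33%, 10% and 0.763% of P6+, P6-, Foxp3-high and Foxp3-low cells with 2 or more. Leaving out those 7 cells gave 60% of P6+ and 28.2% of P6- cells, and 66.7% of Foxp3-high and 27.6% of Foxp3-low cells, with a member.

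The Areg difference of P6+ over P6- was 2.79 with the shared prefix, and -0.01 there without P6+ cell 3. Of the Foxp3 differences of at least 2-fold, those of Entpd1 (-0.29 without the top cells, -0.29 with Foxp3-high at 1 read, -0.37 in P6- cells, -0.16 in the other prefixes) and Ebi3 (-0.91 in P6+ cells, -1.01 in the prefix of the P6+ cells) turned. Smaller ones turned for Il10 (0.29 between means over cells, 0.49 in P6+ cells, 0.38 in the prefix of the P6+ cells) and Nt5e (0.37 in P6- cells, 0.069 in the other prefixes). For P6+ over P6-, Fgl2 went to -0.086 between means over cells and -0.031 without the top cells, and Nt5e to -0.93 with the shared prefix. The cell with most reads of the gene was also left out in 1 group at a time, a choice made after seeing the data. Of the differences of at least 2-fold, this turned Il10 for P6+ over P6- (-0.059, without the P6+ cell). By Foxp3 it turned Entpd1 (-1.38) and Areg (-0.75), each without the Foxp3-high cell. Of the smaller differences for P6+ over P6-, those of Fgl2 (-3.10), Nt5e (-0.064) and Il1rl1 (-0.025) turned without the P6+ cell. Il10 by Foxp3 went from -0.22 to 1.31 without the Foxp3-low cell, with 6 members then 2-fold higher. This left 5 members 2-fold higher in P6+ without the P6- cells and 3 in Foxp3-high without the Foxp3-high cells. Without the top cells of both groups, 3 members were past 2-fold by Foxp3. With every gene with a read, the background was 10.4% higher and 15.97% lower for P6+, and 9.61% and 16.4% for Foxp3-high. The count over the 21 listed partners at 5 cpm and the leaving out of single cells within P6+, P6- or the shared prefix, or from the levels per kilobase, were also chosen after seeing the data. With 5 cpm added, 1 listed partner was 2-fold higher in Foxp3-high cells. The causes were not tested. No paired analysis was possible because each sample is 1 cell and the cell numbers pair nothing. With 1 mouse for the P6+ cells, no spread between animals could be measured, and a gene missing from a cell means that it was not detectable at this depth.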

Other observations

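Other genes around the adenosine and amphiregulin pathways, named here by their counts of cells and outside the rule for named genes, were unevenly present. Slc29a1, which carries adenosine across the membrane, was in 24 cells, 9 of them with a member. Enpp1 and Cd38, ectoenzymes of an alternative route to adenosine, were in 8 and 3 cells, and Ada, which breaks adenosine down, in 3. Adam17, the protease that releases amphiregulin from the cell surface, was in 20 cells, 7 of them P6+.

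Gata3, a transcription factor linked to ST2 in T cells, was in 42 cells, among them 7 of the 15 with Il1rl1 (46.7%, 21.3 to 73.4%) and 35 of the 146 without (23.97%, 17.3 to 31.7%). Rora was in 62 cells, among them 33 of the 58 with a member (56.9%, 43.2 to 69.8%) and 29 cells without (28.2% of those cells, 19.7 to 37.9%). Irf4 was in 4 cells, none of which held a member.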
